A study of Mus musculus with 20 samples.

Results

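Sudemycin D6 was compared with vehicle in the bone marrow of 20 mice, with the genotype of the marrow held constant, so the question was which drug effects are shared by marrow expressing normal and mutant U2AF1. All 20 libraries of the series entered the comparison, 10 from sudemycin D6-treated and 10 from vehicle-treated mice. Each treatment had 5 mice with U2AF1(WT) and 5 with U2AF1(S34F) marrow. In every group the transplanted cells carried a U2AF1 transgene, either WT or S34F, driven by the rtTA activator, so the vehicle mice also expressed a transgene and also ate doxycycline. Recipients had engrafted for >6 weeks, doxycycline chow of 625 ppm then induced the transgene for 7 days, and infusions through an intrajugular catheter filled the last 5 of those days. Donor marrow was pooled within a genotype before transplantation, so the p-values below measure the spread between recipient mice, which are not separate transgenic donors. Cells were unsorted bone marrow, and RNA was total RNA depleted of ribosomal RNA and sequenced as stranded libraries.

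Sudemycins are synthetic small molecules that act on SF3B, the part of the U2 small nuclear ribonucleoprotein that holds the branch point of an intron. U2AF1 and its partner U2AF2 recognise the neighbouring 3′ splice site, and the S34F change in U2AF1 occurs in myelodysplastic syndromes. When branch point or 3′ splice site recognition is weakened, an internal exon can be left out of the mature RNA, which is called exon skipping, or an intron can be kept. Bone marrow makes granulocytes, monocytes, erythroid cells, megakaryocytes and B cells at the same time, and most of its RNA comes from the granulocyte lineage. In RNA from such a mixture, fewer cells of a type and less RNA per cell cannot be told apart.

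Gene counts summed to between 41145892 and 62138138 per mouse, and junction counts to between 34384214 and 64813149, with similar medians under both treatments. The sudemycin-treated U2AF1(WT) mice numbered 8 and 9 stood apart on the component that held 31.3% of the variance in gene expression, and the vehicle-treated U2AF1(WT) mouse 2 on one that held 10.2%. The vehicle-treated U2AF1(S34F) mouse 3 lay at the opposite end of the first of these components (−28.6, against 32.0 and 38.1 for the treated mice) and was left out on its own only. Counts without the 3 other mice are given beside the gene lists in which they differ by at least 2 genes and by over 1.5 times. Genotype went with sex-linked RNA: Xist had between 39145 and 78640 reads in U2AF1(WT) mice and at most 8 in U2AF1(S34F) mice. Genotype and sex can therefore not be told apart, whereas each treatment held both genotypes equally, and Xist did not pass the test for the drug (log2 fold change −0.18 ± 0.13 (SE), edgeR quasi-likelihood FDR = 0.43). Reads of the transgene could not be separated from those of endogenous U2af1. The marrow label matched its markers, with summed levels of 17 late neutrophil genes between 70199 and 156981 CPM (counts scaled to the same library total) in every mouse.

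Sudemycin D6 changed the level of 2309 of 15392 tested genes at an FDR below 10%, which is 15.0% of them. Of these, 1197 genes were higher (7.78%) and 1112 were lower (7.22%) under the drug. Counts of called members in the gene and marker lists below stand against these shares. Changes were mostly small, with a median absolute log2 fold change of 0.34 among the called genes and 0.13 over all tested genes, and 186 called genes exceeded 1 (89 higher and 97 lower). The median log2 fold change over all tested genes was 0.01, which the scaling sets close to 0, so all changes are relative to the typical gene. The values of the 10 treated and the 10 vehicle mice did not overlap for 56 genes (0.364% of those tested), of which 41 were higher.

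Among the genes that rose most, several were barely expressed under vehicle. Fpr3, a receptor of the formyl peptide receptor family, lay between 0 and 0.258 CPM in vehicle mice with a median of 0.0377, and between 1.75 and 3.75 CPM with a median of 2.82 under sudemycin D6. All 10 treated mice lay above all 10 vehicle mice in both genotypes. The fitted log2 fold change was 4.93 ± 0.37 (SE, FDR = 5.4e-08), a value that depends on the prior count because 4 vehicle mice had no read. Reads of Fpr3 may be shared with related receptor genes of the same cluster on chromosome 17.

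Sh2d4b, which encodes an SH2 domain protein, rose from a median of 0.835 CPM (0.558 to 1.14) to 2.65 CPM (1.51 to 3.41), without overlap (log2 fold change 1.53 ± 0.14, FDR = 6.9e-07). Dnahc17, which encodes an axonemal dynein heavy chain, rose by 1.68 ± 0.18 on the log2 scale (FDR = 3.9e-06), from 0.486 to 1.42 CPM under vehicle to 2.07 to 5.55 CPM under the drug. Rab15, a small GTPase of endosomal recycling, lay at 1.33 to 3.03 CPM under vehicle and 3.64 to 13.2 CPM under the drug (1.47 ± 0.18, FDR = 1.5e-05). These genes and Rnf152, a lysosomal ubiquitin ligase (1.39 ± 0.23), were those of the 10 named rises, besides Fpr3, in which no treated mouse overlapped a vehicle mouse.

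Other large rises were in more abundant genes of the cell surface. Mcam, an adhesion molecule of the immunoglobulin family, had a median of 32.5 CPM (29.1 to 62.6) under vehicle and 90.7 CPM (61.5 to 129) under sudemycin D6. The ranges met because 1 vehicle-treated U2AF1(WT) mouse lay just above 1 treated U2AF1(S34F) mouse, and within each genotype the treatments were separate (1.28 ± 0.11, FDR = 2.0e-07). Clec1b, which encodes the platelet receptor CLEC-2 and is also found on some myeloid cells, rose from 2.84 to 14.4 CPM to 8.75 to 34.4 CPM (1.32 ± 0.14, FDR = 4.4e-06), again without overlap within either genotype. Cd38, an ectoenzyme of NAD turnover, rose from a median of 7.06 CPM to 18.8 CPM (1.46 ± 0.22, FDR = 3.1e-04). Its treatments were separate in U2AF1(S34F) mice and overlapped in U2AF1(WT) mice. Prok2, a secreted chemokine-like protein of neutrophils, rose by 1.23 ± 0.28 (FDR = 0.0076).

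Lars2, the mitochondrial leucyl-tRNA synthetase, was called at a log2 fold change of 2.06 ± 0.67 (FDR = 0.057) but ranged from 25.7 to 6791 CPM over the mice. Without the sudemycin-treated U2AF1(WT) mouse 12 its fold change was 1.35 and its FDR was 0.10, and the limit was also missed without the vehicle-treated U2AF1(WT) mouse 1 or 5 (1.96 and 1.98).

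**Figure D1:**
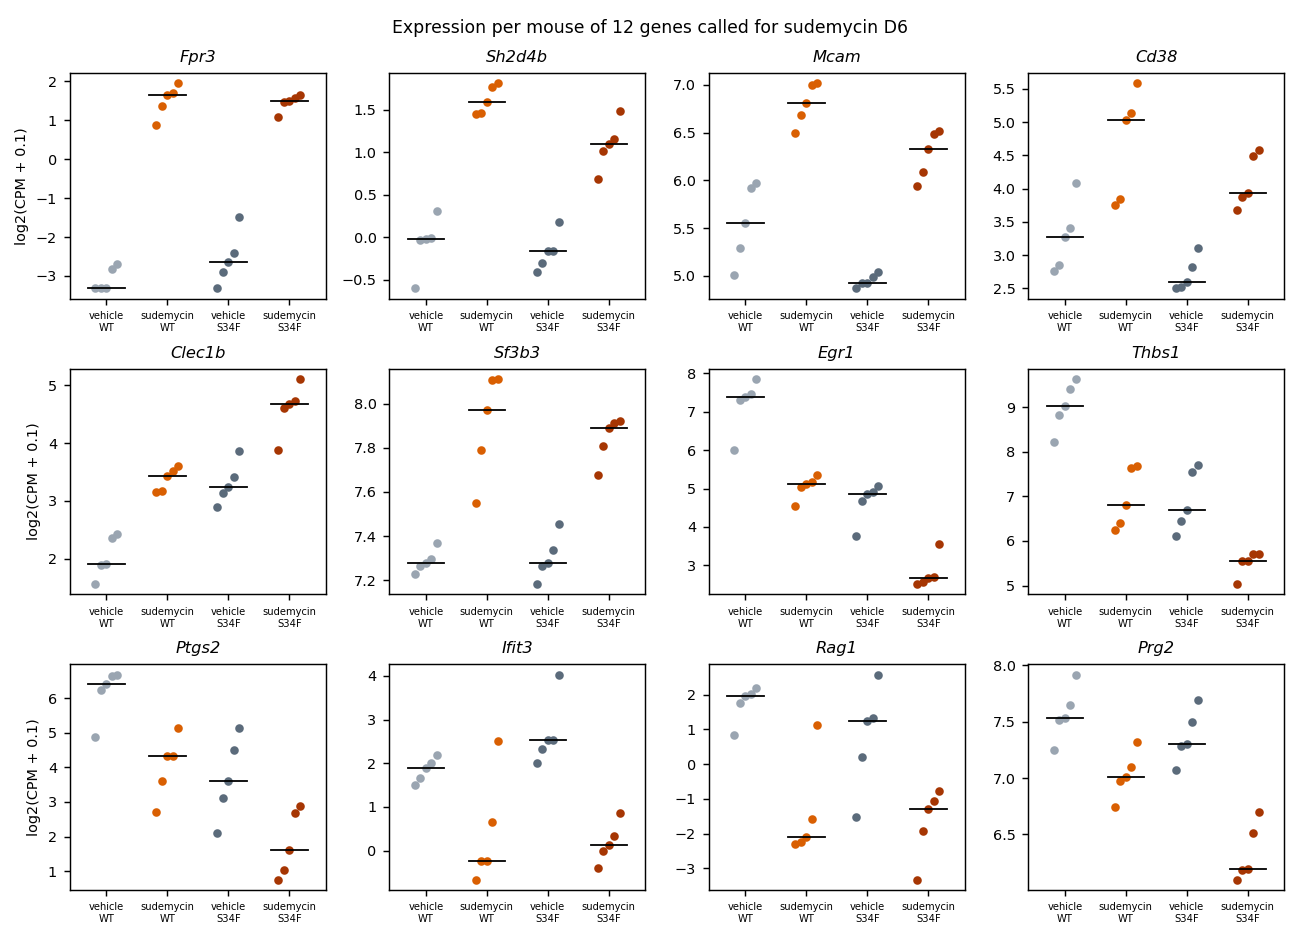
Level of 12 genes in each of the 20 mice, as log2(CPM + 0.1) on the vertical axis, with 5 mice in each of the 4 groups of treatment and genotype and a bar at each group's median. Fpr3, Sh2d4b and Sf3b3 separate all treated from all vehicle mice, whereas Egr1 and Thbs1 separate them within each genotype only.

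The 10 named decreases included 3 genes of B cell precursors, which are described first. Rag1, an endonuclease subunit that cuts antigen receptor genes in B and T cell precursors, had a median of 2.86 CPM (0.248 to 5.88) under vehicle and 0.199 CPM (0 to 2.07) under the drug. The log2 fold change was −2.78 ± 0.57 (FDR = 0.0042) and changed to −3.52 without the sudemycin-treated U2AF1(WT) mouse 10, whose 2.07 CPM lay far above the other treated mice of that genotype. Igll1, a surrogate light chain of the pre-B cell receptor, fell by 2.28 ± 0.49 (FDR = 0.0056), and Dntt, the template-free polymerase of V(D)J joining, fell by 1.61 ± 0.29 (FDR = 0.0013).

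Egr1, a zinc finger factor that is induced within minutes of many stimuli, lay between 13.6 and 231 CPM under vehicle (median 49.0) and between 5.62 and 41.2 CPM under sudemycin D6 (median 17.4). It was separate within each genotype (log2 fold change −2.07 ± 0.21, FDR = 5.0e-06). Thbs1, a matrix glycoprotein that platelets store and release, fell from a median of 253 CPM (69.0 to 792) to 64.0 CPM (32.7 to 206), also without overlap within either genotype (−1.76 ± 0.25, FDR = 1.6e-04). Ptgs2, the inducible cyclooxygenase, fell by 2.04 ± 0.40 (FDR = 0.0030) and overlapped in both genotypes. Scin, an actin-severing protein, fell from 1.11 to 2.59 CPM to 0.168 to 1.13 CPM (−1.71 ± 0.22, FDR = 2.9e-05). Lypd6b (−1.61 ± 0.20), Itga8, an integrin chain (−1.58 ± 0.28), and Ifit3, described below, completed the 10 named decreases.

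The drug effect was then fitted in each genotype alone. Of the 2309 called genes, 2300 had the same sign in both genotypes, a match that calling on the mice of both genotypes favours. The separate fits do not share this selection. Among 14400 genes tested in both separate fits, 64.7% had the same sign. Of the 444 genes called in U2AF1(WT) mice alone, 400 (90.1%) had the same sign in U2AF1(S34F) mice, which are other animals, and 198 (44.6%) were called there too. Of the 1563 called in U2AF1(S34F) mice alone, 1323 (84.6%) had the same sign in U2AF1(WT) mice, and the same 198 are 12.7% of them. In the fit on all mice 1022 genes were called that neither genotype called alone.

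A test of the difference between the genotypes' drug effects called 2 genes, Atf3 and Gla, in the edgeR quasi-likelihood test at an FDR below 10%, and 1144 genes (7.43%) had an unadjusted interaction p below 0.05. Atf3, a stress-induced transcription factor, fell by 2.39 on the log2 scale in U2AF1(WT) mice, from 58.7 to 97.3 CPM to 8.12 to 17.0 CPM, and its log2 fold change in U2AF1(S34F) mice was −0.01, with 3.11 to 6.07 CPM under vehicle. Gla, the lysosomal α-galactosidase, fell by 1.01 in U2AF1(WT) mice and had a log2 fold change of 0.11 in U2AF1(S34F) mice. Neither decrease is therefore a shared drug effect, although both were called on all 20 mice. The number of interaction calls was not stable: it was 87 without the vehicle-treated U2AF1(S34F) mouse 5 and 116 in DESeq2.

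**Figure D2:**
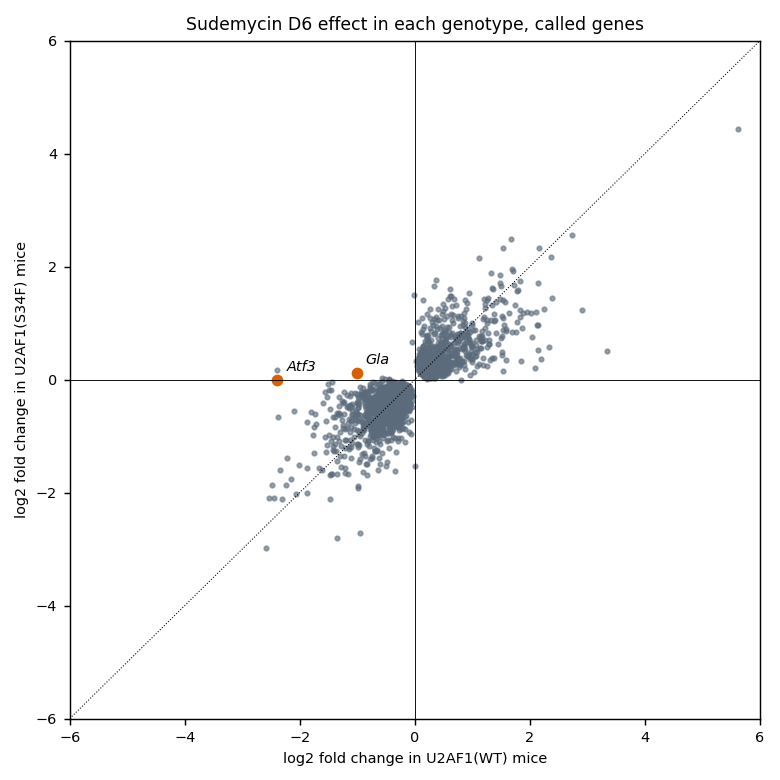
Log2 fold change of sudemycin D6 over vehicle in U2AF1(WT) mice (horizontal axis) and in U2AF1(S34F) mice (vertical axis) for the 2309 genes called on all 20 mice, with the dotted line marking equal effects. In 2300 genes the signs match, which calling on all 20 mice favours, and Atf3 and Gla, in orange, are the genes with an interaction FDR below 10%.

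The splicing machinery itself was examined next, because SF3B is the known target of the drug. Of 9 measured SF3B and SF3A subunits, 4 were higher (against 7.78% of all tested genes) and 0 lower, with a median log2 fold change of 0.16 against 0.01 over all genes. Sf3b3, the β-propeller subunit that contacts SF3B1 and PHF5A, had a median of 155 CPM (145 to 176) under vehicle and 239 CPM (187 to 276) under sudemycin D6. The 2 sets of 10 mice did not overlap, and the log2 fold change was 0.59 ± 0.06 (FDR = 3.9e-06), with 0.63 in U2AF1(WT) and 0.54 in U2AF1(S34F) mice. Sf3b4 (0.29 ± 0.07, FDR = 0.011), Phf5a (0.20 ± 0.06, FDR = 0.039) and Sf3a2 (0.32 ± 0.12, FDR = 0.096) were also called, with overlapping values, and the Sf3a2 call was lost when any 1 of 17 of the mice was left out. Sf3b1, the subunit that carries the branch point pocket with PHF5A, did not pass the test (633 to 788 CPM under vehicle, 662 to 844 CPM under the drug, 0.05 ± 0.05, FDR = 0.61). In U2AF1(WT) mice alone 1 subunit was called and in U2AF1(S34F) mice alone 4, and 7 were higher without the 3 mice that stood apart.

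Of 9 factors that recognise the 3′ splice site, 2 were higher and 3 lower. U2af1 rose by 0.17 ± 0.05 (FDR = 0.028) from 34.8 to 54.3 CPM to 38.5 to 58.0 CPM, in which reads of the transgene could not be told apart, and its partner U2af2 rose by 0.17 ± 0.05 (FDR = 0.030). Zrsr1, a U2AF1-related factor, fell by 0.36 ± 0.09 (FDR = 0.012), Rbm39, a U2AF2-related RNA-binding protein, fell by 0.24 ± 0.05 (FDR = 0.0040), and Zrsr2, which serves the minor spliceosome, fell by 0.15 ± 0.05 (FDR = 0.095).

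Regulators outside the U2 particle mostly did not pass the test. Of 12 SR and Tra2 proteins, which help exons to be recognised, Srsf5 fell by 0.23 ± 0.08 (FDR = 0.063) and 11 did not pass. Of 7 kinases that phosphorylate SR proteins, 3 fell: Clk1 from a median of 357 CPM (285 to 504) to 270 CPM (242 to 353), by 0.45 ± 0.07 (FDR = 5.1e-04), Srpk2 by 0.22 ± 0.07 (FDR = 0.065) and Clk4 by 0.19 ± 0.05 (FDR = 0.027). Clk1 was separate within each genotype, whereas the calls of Srsf5 and Srpk2 were lost without any 1 of 5 and 6 mice. Of 26 hnRNP and PTB proteins, which often oppose exon inclusion, 5 rose and 1 fell, with Pcbp2 higher by 0.29 ± 0.08 (FDR = 0.030) and Hnrpdl lower by 0.26 ± 0.07 (FDR = 0.014). The 5 became 9 without the sudemycin-treated U2AF1(WT) mouse 9 or without the 3 mice that stood apart, 2 without the vehicle-treated U2AF1(WT) mouse 5, and 3 without the sudemycin-treated U2AF1(S34F) mouse 6 or the vehicle-treated U2AF1(S34F) mouse 1 or 3.

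Nonsense-mediated decay removes RNA with early stop codons. Of 8 decay factors, 2 fell (against 7.22% of all tested genes), and 4 fell without the 3 mice that stood apart. The 2 were Smg6, the endonuclease, which fell by 0.18 ± 0.05 (FDR = 0.021), and Smg1, the kinase, which fell by 0.15 ± 0.05 (FDR = 0.067), a call lost without any 1 of 7 mice. Of 10 snoRNA host genes, whose spliced RNAs are known decay substrates, 1500012F01Rik (Zfas1) fell by 0.22 ± 0.06 (FDR = 0.029) and 9 did not pass.

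Early response and inflammatory genes were lower as groups. Of 23 immediate-early genes, which are transcribed at once after stimulation, 16 fell and 0 rose (7.22% of all tested genes fell), and the median log2 fold change was −0.48. Besides Egr1, the decreases included Egr2 (−1.19 ± 0.19, FDR = 2.8e-04), Fos (−0.89 ± 0.19, FDR = 0.0050) and Junb (−0.39 ± 0.11, FDR = 0.023). Atf3, whose decrease was not shared by the genotypes, is also among the 16. Summed over the 23 genes, vehicle-treated U2AF1(WT) mice held 3739 to 7477 CPM and treated ones 3175 to 4094 CPM, whereas U2AF1(S34F) mice held 1518 to 2281 CPM under vehicle and 1455 to 1684 CPM under the drug. The sums of the treatments overlapped in both genotypes, and the level of the group differed more between genotypes than between treatments. Fitted alone, U2AF1(WT) mice gave 10 decreases and U2AF1(S34F) mice 8. Without the genotype term 3 decreases were called. The 3 mice that stood apart did not carry the result, since 15 decreases were called without them.

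Of 21 cytokines and NF-κB targets, 12 fell (against 7.22% of all tested genes) and 0 rose, with a median of −0.50. Ccl3 and Ccl4, chemokines of activated myeloid cells, fell by 1.27 ± 0.22 (FDR = 9.6e-04) and 1.36 ± 0.28 (FDR = 0.0033). Il1b, the inflammasome cytokine, had a median of 324 CPM (140 to 600) under vehicle and 151 CPM (71.1 to 394) under the drug, a decrease of 0.87 ± 0.17 (FDR = 0.0032), and the ranges overlapped. The summed level of the 21 genes was 1803 to 2360 CPM in vehicle-treated and 1076 to 1444 CPM in treated U2AF1(WT) mice, which did not overlap. In U2AF1(S34F) mice the corresponding ranges were 821 to 1244 CPM and 712 to 934 CPM, which overlapped.

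Interferon-stimulated genes also fell. Of 38 measured, 20 were lower and 0 higher, with a median log2 fold change of −0.41. Ifi27l2a, a small interferon-induced protein, fell from a median of 15.0 CPM (8.54 to 20.3) to 6.34 CPM (4.51 to 7.38), which did not overlap (−1.31 ± 0.13, FDR = 1.1e-06). Irf7, the factor that amplifies the interferon response, fell by 0.95 ± 0.13 (FDR = 1.0e-04), and Mx2, an antiviral GTPase, fell by 1.23 ± 0.17 (FDR = 6.8e-05). Ifit3, an RNA-binding antiviral protein, had a median of 4.17 CPM (2.74 to 16.2) under vehicle and 0.939 CPM (0.531 to 5.56) under sudemycin D6 (−1.83 ± 0.43, FDR = 0.010). The highest treated value, 5.56 CPM, came from the sudemycin-treated U2AF1(WT) mouse 8.

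That mouse bore on the whole group. The summed level of the 38 genes was 2438 CPM in its library, more than in any other mouse, and 33 genes were lower when it was left out, as they were without the 3 mice that stood apart. Fitted alone, U2AF1(S34F) mice gave 25 decreases and a median of −0.81, and U2AF1(WT) mice, which include it, gave 6 and −0.28. Neither split was tested as a difference between genotypes for the group.

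Promoter sequence from RefSeq was at hand for 25 of the 38 genes, as the 250 bases before and 50 after the gene start on GRCm38.p6. The interferon-stimulated response element, searched on both strands as GAAA, any 2 bases and GAAA, occurred in 17 of the 25 (68.0%) and in 9 of the 14 matched genes that fell (64.3%), compared with 3.99% of all 27025 genes with a promoter. The 2 promoters below show the element, in capitals with overlapping copies joined, in 2 of the decreased genes, Ifit3 (chr19:34583279-34583578, + strand) and Isg15 (chr4:156200769-156201068, − strand). Isg15, a ubiquitin-like protein, fell by 1.26 ± 0.32 (FDR = 0.016).
Ifit3 promoter: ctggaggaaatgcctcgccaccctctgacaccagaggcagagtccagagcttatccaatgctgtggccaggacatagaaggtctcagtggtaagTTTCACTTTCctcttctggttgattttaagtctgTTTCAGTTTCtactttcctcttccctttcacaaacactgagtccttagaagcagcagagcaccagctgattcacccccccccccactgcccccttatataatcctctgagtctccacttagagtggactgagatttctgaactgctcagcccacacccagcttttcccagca
Isg15 promoter: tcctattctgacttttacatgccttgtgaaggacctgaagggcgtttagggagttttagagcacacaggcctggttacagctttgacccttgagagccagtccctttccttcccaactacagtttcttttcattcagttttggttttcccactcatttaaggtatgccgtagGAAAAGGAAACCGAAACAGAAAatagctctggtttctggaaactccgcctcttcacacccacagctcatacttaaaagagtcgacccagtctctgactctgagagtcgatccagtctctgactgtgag
These matches describe the letters of the promoters and not the binding of a factor. Among 19 immediate-early genes with a promoter, the cAMP response element TGACGTCA occurred in 1 gene (2.03% of all genes) and the CArG box in 2 (1.81% of all genes).

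**Figure D3:**
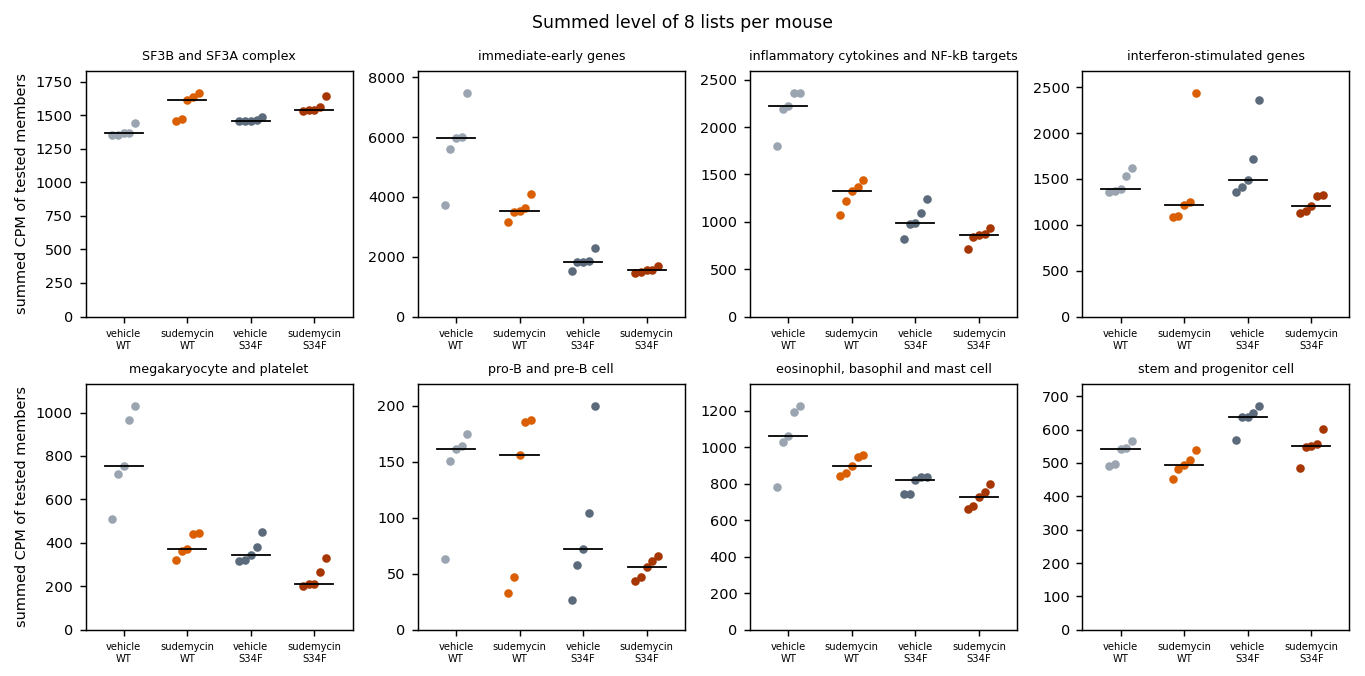
Summed CPM of the tested members of 8 lists in each mouse, with 5 mice in each of the 4 groups, a bar at each group's median and axes that start at 0. The sum of SF3B and SF3A subunits is higher and that of inflammatory genes lower in treated than in vehicle U2AF1(WT) mice without overlap. The separation of the SF3B and SF3A sums came from Sf3b3 and does not describe the complex as a whole. In U2AF1(WT) mice Sf3b3 alone made up 150 to 165 CPM under vehicle and 187 to 276 CPM under the drug. Of all mice, 1 treated U2AF1(WT) mouse has the highest interferon-stimulated sum (2438 CPM).

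Antigen presentation genes were partly lower. Of 12 genes of MHC class I and peptide loading, 3 fell: H2-K1 (−0.48 ± 0.07, FDR = 2.0e-04), H2-D1 (−0.35 ± 0.08, FDR = 0.0095) and B2m (−0.31 ± 0.10, FDR = 0.062), and 5 fell without the sudemycin-treated U2AF1(WT) mouse 8. Without the 3 mice that stood apart 5 fell and 2 rose. Reads of H2-K1 and H2-D1 may be shared between these similar genes. Of 10 MHC class II genes, 1 fell, H2-DMb1 (−0.32 ± 0.12, FDR = 0.091), and 5 fell without the vehicle-treated U2AF1(S34F) mouse 7. The H2-DMb1 call was lost without any 1 of 12 other mice.

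Targets of p53 went in both directions. Of 21 measured, 7 rose and 5 fell (against 7.78% and 7.22% of all tested genes). The rises included the pro-apoptotic Bax, from a median of 21.1 CPM (16.4 to 23.8) to 24.7 CPM (23.5 to 28.3), with overlap in U2AF1(WT) mice only (0.30 ± 0.06, FDR = 0.0044), and Zmat3, an RNA-binding protein (0.74 ± 0.11, FDR = 1.1e-04). The largest was Eda2r, a receptor of the TNF family, at 1.53 ± 0.37 (FDR = 0.011), although its median was 0.406 CPM under the drug. The decreases included Plk2 (−0.83 ± 0.16, FDR = 0.0016), Btg2, an antiproliferative gene that is also an early response gene (−0.80 ± 0.10, FDR = 2.7e-05), and Pmaip1, which encodes the apoptosis inducer NOXA (−0.55 ± 0.14, FDR = 0.017). Of 16 BCL2 family genes, which include Bax and Pmaip1, 3 rose and 2 fell.

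Stress response genes had calls in both directions. Of 22 genes of the integrated stress and unfolded protein responses, 7 fell and 1 rose. Those that fell included Ddit3, which encodes CHOP (−0.58 ± 0.08, FDR = 7.3e-05), Ppp1r15a, which encodes GADD34 (−0.80 ± 0.17, FDR = 0.0056), Atf4 (−0.38 ± 0.09, FDR = 0.0084) and the cystine transporter Slc7a11 (−1.06 ± 0.17, FDR = 5.1e-04). Without the 3 mice that stood apart, 8 rose and 7 fell. Of 18 heat shock chaperones, the HSP40 genes Dnajb1 (−0.29 ± 0.05, FDR = 8.0e-04) and Dnaja1 (−0.26 ± 0.07, FDR = 0.018) fell and 0 rose, against 5 higher and 3 lower without those mice. Of 14 NRF2 targets, 2 rose (7.78% of all tested genes did), among them G6pdx of the pentose phosphate pathway (0.36 ± 0.11, FDR = 0.045). In the same list 1 fell, against 3 that fell without those mice.

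Of 16 glucocorticoid-responsive genes, 4 rose and 0 fell. Il1r2, the decoy receptor of interleukin 1, rose from a median of 55.1 CPM (36.3 to 67.7) to 88.0 CPM (57.7 to 132) (0.72 ± 0.13, FDR = 9.6e-04), and Fkbp5, a co-chaperone of the glucocorticoid receptor, rose by 0.49 ± 0.12 (FDR = 0.011). Both overlapped in U2AF1(S34F) mice and were separate in U2AF1(WT) mice. Klf9 and Mt1 were the other members that rose (0.33 and 0.34), and the median of the group was −0.02. Of 17 circadian clock genes Tef fell (−0.34 ± 0.12, FDR = 0.080), a call lost without any 1 of 10 mice, and 16 did not pass the test.

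Among housekeeping functions, respiratory chain genes had the most calls. Of 79 nuclear genes of the complexes of oxidative phosphorylation, 17 rose and 2 fell (against 7.78% and 7.22% of all tested genes), with a median of 0.10. The rises were small and lay between 0.14 and 0.29, such as Ndufs6 (0.29 ± 0.06, FDR = 0.0026) and Ndufa8 (0.29 ± 0.08, FDR = 0.030), both subunits of complex I. The genes that fell, Cox6a2 (−0.86 ± 0.30, FDR = 0.073) and Cox6b2 (−0.42 ± 0.14, FDR = 0.071), encode tissue-specific subunits that did not exceed 4.04 CPM in any mouse, and the Cox6b2 call was lost without any 1 of 6 mice. The number of rises was 31 without the 3 mice that stood apart, 39 without the vehicle-treated U2AF1(WT) mouse 2 and 11 without the vehicle-treated U2AF1(WT) mouse 1, 3 or 5, and the genotypes alone gave 1 and 6. Of 78 ribosomal protein genes edgeR called 0, 1 had an unadjusted p below 0.05, DESeq2 called 1, which was lower, and edgeR called 3 higher without the 3 mice that stood apart.

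Of 27 genes of the cell cycle and DNA replication, 2 rose, near the 7.78% of all tested genes that did. They were Plk1, a mitotic kinase (0.36 ± 0.08, FDR = 0.0066), and Rrm2, a subunit of ribonucleotide reductase (0.17 ± 0.06, FDR = 0.091). Without the vehicle-treated U2AF1(WT) mouse 2 this number was 12, without the 3 mice that stood apart it was 10, and the Rrm2 call was lost without any 1 of 14 other mice. Of 65 replication-dependent histone genes, 3 rose, a smaller share than the 7.78% of all tested genes. They included Hist1h1a (0.30 ± 0.10, FDR = 0.054), and 6 rose without the vehicle-treated U2AF1(WT) mouse 2 or the sudemycin-treated U2AF1(WT) mouse 12. Reads of the core histone genes may be shared between near-identical copies. Of 19 cholesterol synthesis genes, 1 rose and 1 fell, and of 20 lysosomal genes Ctsz rose (0.27 ± 0.08, FDR = 0.038) and Gla fell. None of these counts exceeded the shares over all tested genes (7.78% higher, 7.22% lower).

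**Figure D4:**
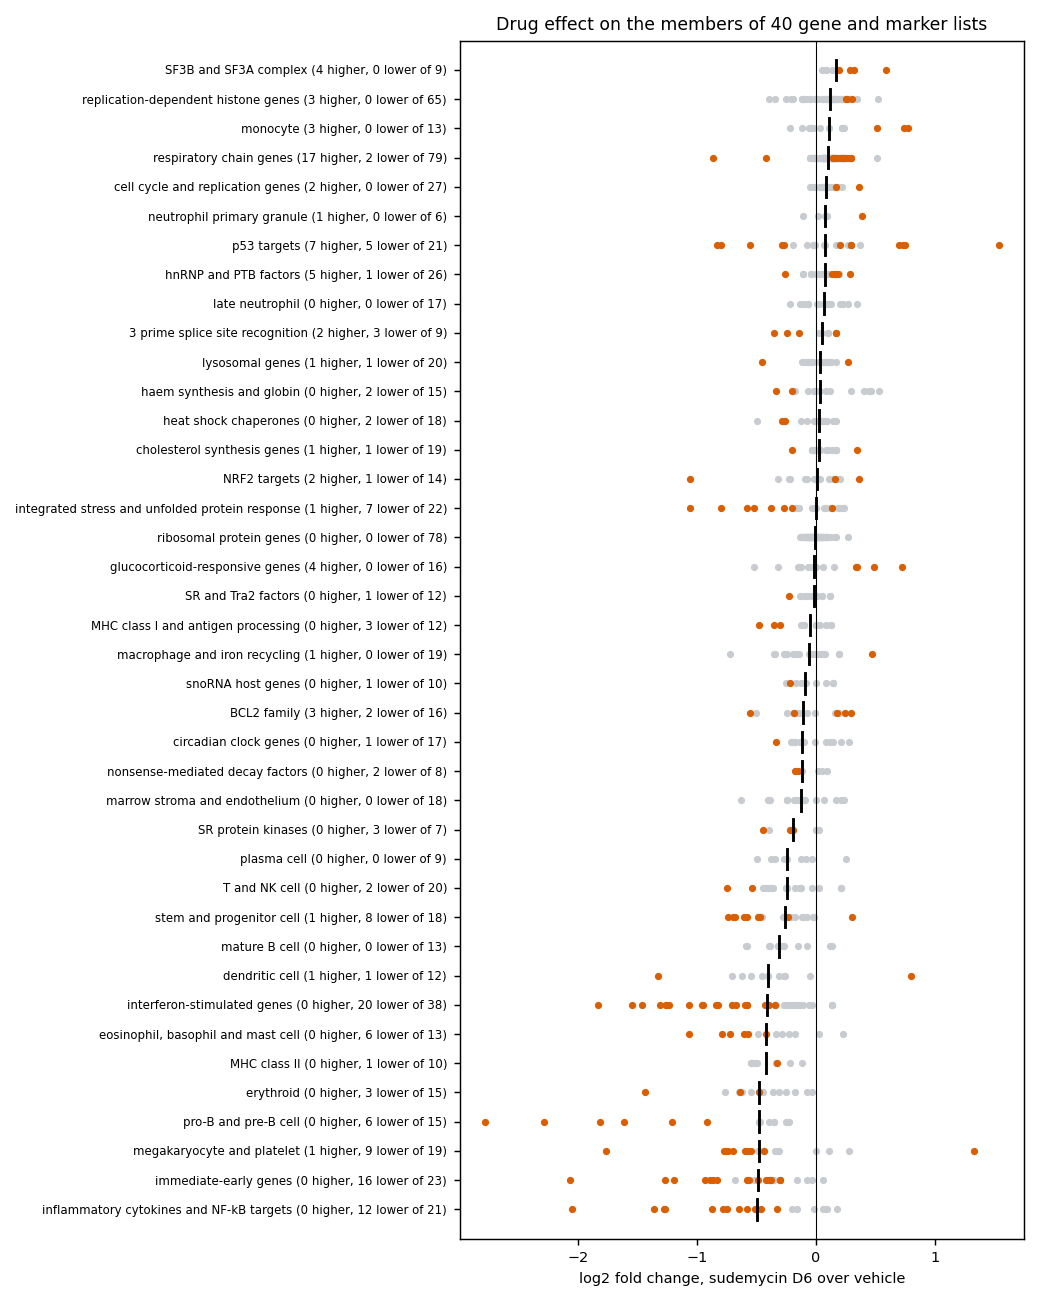
Log2 fold change of sudemycin D6 over vehicle for each tested member of 40 gene and marker lists, with called members in orange, other members in grey and the list median as a black bar. Inflammatory, immediate-early, interferon-stimulated and MHC class II genes and the markers of megakaryocytes, B cell precursors, erythroid cells and eosinophils, basophils and mast cells have medians of −0.41 or lower.

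Markers of the marrow's cell types were examined as further lists, although RNA from unsorted marrow cannot assign a change to a cell type. Of 15 markers of pro-B and pre-B cells, 0 rose, 9 did not pass the test and 6 fell: Rag1, Rag2, Igll1, Vpreb1, Vpreb3 and Dntt. The summed level of the 15 markers was 26.4 to 199 CPM under vehicle and 32.4 to 187 CPM under the drug, so the sums overlapped. Of 13 mature B cell and 9 plasma cell markers, 0 were called by edgeR, and 0 and 1 had an unadjusted p below 0.05 (DESeq2 called 0 and 1).

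Of 19 megakaryocyte and platelet genes, 9 were lower (against 7.22% of all tested genes), 1 was higher (Clec1b) and 9 did not pass the test, with a median of −0.48. The decreases held the storage proteins Thbs1 and Pf4 (−0.74 ± 0.23, FDR = 0.043) and the receptor chain Itga2b (−0.54 ± 0.12, FDR = 0.0051). The summed level was 510 to 1029 CPM in vehicle-treated and 322 to 446 CPM in treated U2AF1(WT) mice, without overlap. Thbs1 alone made up 299 to 792 CPM and 75.8 to 206 CPM of these sums. The separation of the U2AF1(WT) sums therefore came from Thbs1 and does not describe the list as a whole. In U2AF1(S34F) mice it was 318 to 448 CPM and 202 to 331 CPM, with overlap. Alone, U2AF1(WT) mice gave 1 decrease and U2AF1(S34F) mice 6.

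Of 18 stem and progenitor cell genes, 8 fell and 1 rose. Flt3 (−0.58 ± 0.10, FDR = 4.6e-04) and Kit (−0.49 ± 0.13, FDR = 0.021) encode growth factor receptors of progenitors, and Meis1 (−0.61 ± 0.12, FDR = 0.0029), Mecom (−0.68 ± 0.15, FDR = 0.0072) and Gata2 (−0.70 ± 0.20, FDR = 0.033) are transcription factors of stem cells. Flt3 had a median of 23.1 CPM (18.3 to 30.5) under vehicle and 14.9 CPM (12.1 to 20.9) under the drug. Prom1 was the member that rose (0.31 ± 0.10, FDR = 0.049).

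Of 13 markers of eosinophils, basophils and mast cells, 6 fell and 0 rose. Ear1, an eosinophil ribonuclease, fell from a median of 33.3 CPM (23.7 to 64.0) to 17.9 CPM (9.31 to 31.1) and was separate within each genotype (−1.07 ± 0.14, FDR = 3.4e-05). Its reads may be shared with other members of its gene family. Prg2, the eosinophil major basic protein, fell by 0.79 ± 0.11 (FDR = 8.6e-05), and the basophil and mast cell genes Mcpt8, Fcer1a and Ms4a2 fell by 0.72, 0.61 and 0.42. Tpsab1 had no read in any mouse.

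Of 15 erythroid markers, 3 fell, led by Car1, a carbonic anhydrase of early erythroid cells, from a median of 38.4 CPM (23.4 to 66.6) to 11.2 CPM (4.19 to 40.1) (−1.43 ± 0.33, FDR = 0.0096). The number was 7 without the sudemycin-treated U2AF1(WT) mouse 6, 5 without the sudemycin-treated U2AF1(WT) mouse 10, 7 in U2AF1(S34F) mice alone and 0 in U2AF1(WT) mice alone. Of 15 genes of haem synthesis and globin, 2 fell (7.22% of all tested genes did), Uros (−0.33 ± 0.11, FDR = 0.066) and the mitochondrial iron importer Slc25a37 (−0.20 ± 0.06, FDR = 0.042). The Uros call was lost without any 1 of 6 mice. Of 20 T and NK cell markers, 2 fell (7.22% of all tested genes did), Cd3d (−0.54 ± 0.15, FDR = 0.024) and Ccl5 (−0.75 ± 0.20, FDR = 0.019). Among 12 dendritic cell markers, Siglech, of plasmacytoid cells, fell by 1.32 ± 0.29 (FDR = 0.0056), whereas Clec9a, of conventional cells, rose by 0.80 ± 0.14 (FDR = 6.2e-04).

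Markers of the abundant myeloid lineages were examined last. Of 17 late neutrophil genes 0 were called by edgeR, 4 had an unadjusted p below 0.05, and DESeq2 called 2, both higher. Their median log2 fold change was 0.07. Without the 3 mice that stood apart it was −0.09, and 2 were called lower. Of 6 primary granule genes, Prtn3, the granule protease, rose from a median of 337 CPM (213 to 430) to 411 CPM (335 to 622) (0.38 ± 0.10, FDR = 0.017). Of 13 monocyte genes, 3 rose (against 7.78% of all tested genes), and 5 without the 3 mice that stood apart. The 3 were Fcgr1 (0.77 ± 0.24, FDR = 0.049), Fcgr4 (0.51 ± 0.15, FDR = 0.037) and Ace (0.74 ± 0.24, FDR = 0.058). The Fcgr1 call was lost without the sudemycin-treated U2AF1(WT) mouse 8 (0.69) or the vehicle-treated U2AF1(S34F) mouse 1, and the Ace call without any 1 of 3 mice. Of 19 macrophage genes, Slc11a1, a metal transporter of phagosomes, rose by 0.47 ± 0.07 (FDR = 1.5e-04). Of 18 genes of stroma and endothelium 0 were called by edgeR or DESeq2, and 0 had an unadjusted edgeR p below 0.05. Early response, interferon and inflammatory genes were lower in the same comparison as these marker changes. Whether they varied together over the mice, and the part of cell composition in them, was not tested.

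Splicing was measured from reads on junctions with both ends annotated, including those whose ends the annotation does not join. For a cassette exon, Ψ is the percent of transcripts that include the exon, estimated from the inclusion junctions and the junction that passes over it, and ΔΨ is sudemycin D6 minus vehicle averaged over the genotypes. Of 69205 tested cassette events, 619 (0.894%) were skipped more and 342 (0.494%) were included more under the drug at an FDR below 10% and a |ΔΨ| above 1%. The junction that passes over the exon was itself unannotated in 87.0% of tested events. This share was 55.3% in events skipped more and 48.5% in events included more. The 961 events lay in 903 different exons of 690 genes, and their median |ΔΨ| was 5.08 percentage points against 0.268 over all tested events. In 954 of them the sign was the same in both genotypes, a match that calling on the mice of both genotypes favours. A change of over 10 points was found in 210. The treated and vehicle mice did not overlap in 42, which were called on the same values, and the share over all tested events is not given.

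These counts depended on the test. The edgeR test used here leaves variation between mice to a quasi-Poisson factor with no negative binomial dispersion, and it was taken over from earlier work on these data in which several forms had been compared. On simulated data it called more unchanged events than its FDR allows where mice varied moderately, and limma did not. limma on logit Ψ called 175 events skipped more and 83 included more, and 234 of the 961 events (24.3%) were called by both tests, 158 skipped more and 76 included more. With an estimated dispersion edgeR called 0 events, while 5246 had an unadjusted p below 0.05. The limma FDR is therefore given beside each exon or as a range over several. Exact permutation p-values printed for some exons are unadjusted. They use the values by which the exons were chosen, so they give no separate support.

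The cassette exons with the largest decreases are shown with the last 40 bases of the upstream intron in lower case, where the branch point and the polypyrimidine tract lie, and the first 3 bases of the exon in capitals (NCBIM37, in the direction of the gene). Tpd52 and Pecam1 are shown because their skipping was called by both tests, Cnot2 because its mice did not overlap, and Ms4a2 and Clk4 because their inclusion rose. The U2af1 site is the upstream site of an exon in the transcript of the splicing factor that recognises such sites.
Tpd52 exon at chr3:8943551-8943577, − strand: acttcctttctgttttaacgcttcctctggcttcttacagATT
Pecam1 exon at chr11:106533056-106533112, − strand: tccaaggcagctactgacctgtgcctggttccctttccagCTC
Cnot2 exon at chr10:115974277-115974334, − strand: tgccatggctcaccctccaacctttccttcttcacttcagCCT
Ms4a2 exon at chr19:11696653-11696667, − strand: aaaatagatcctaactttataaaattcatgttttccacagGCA
Clk4 exon at chr11:51081667-51081733, + strand: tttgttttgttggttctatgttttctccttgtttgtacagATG
U2af1 exon at chr17:31789447-31789513, − strand: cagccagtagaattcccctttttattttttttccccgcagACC
Of the last 20 intron bases, pyrimidines made up 80.0% in Tpd52, Pecam1 and Clk4, 85.0% in Cnot2, 90% in U2af1 and 60% in Ms4a2.

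Tpd52, which encodes a vesicle trafficking protein, lost a coding exon of 27 bases, whose whole sequence is given in capitals.
Tpd52 exon: ATTGCAAGCTTTCTCACATTCATTTAG
Its Ψ was 55.2 to 100% under vehicle with a median of 88.2%, and 27.8 to 56.9% under sudemycin D6 with a median of 40.9%. Apart from the vehicle mouse at 55.2%, every vehicle mouse lay above every treated mouse. The ΔΨ was −41.9 points (edgeR FDR = 1.0e-04, limma FDR = 0.031, exact permutation p = 6.3e-05), on 19 to 144 reads per mouse, with −52.4 in U2AF1(WT) and −31.3 in U2AF1(S34F) mice. The Tpd52 gene itself rose by 0.22 on the log2 scale (edgeR FDR = 0.051).

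Ythdf3, a reader of N6-methyladenosine in RNA, had Ψ of 41.8 to 93.8% under vehicle and 17.9 to 52.9% under the drug for an exon of 149 bases (ΔΨ −41.0 points, edgeR FDR = 9.1e-06, limma FDR = 0.0073). Dido1, a regulator of transcription, had 58.5 to 100% and 30.8 to 71.4% (ΔΨ −36.7, edgeR FDR = 0.010, limma FDR = 0.013). AB124611, on chromosome 9, had 42.0 to 83.0% and 22.1 to 52.4% for an exon of 44 bases (ΔΨ −28.1, edgeR FDR = 2.2e-06, limma FDR = 0.014). The treatments of these exons overlapped in few mice, and neither Ythdf3 nor Dido1 nor AB124611 was called at the gene level.

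Pecam1, the adhesion receptor CD31 of endothelial and blood cells, had the deepest of the strongly skipped exons, with 105 to 281 reads per mouse. Its exon of 57 bases had Ψ of 45.7 to 66.8% (median 52.5%) in vehicle mice and 21.9 to 40.6% (median 31.9%) in treated mice. No treated mouse reached the lowest vehicle mouse, and the ΔΨ of −22.7 points (edgeR FDR = 1.8e-06, limma FDR = 0.013, exact permutation p = 3.1e-05, the smallest these permutations allow) was −21.0 in U2AF1(WT) and −24.4 in U2AF1(S34F) mice. Cnot2, a subunit of the CCR4-NOT deadenylase, did not overlap either, at 32.7 to 80.5% and 10.6 to 31.1% for an exon of 58 bases (ΔΨ −23.7, edgeR FDR = 4.8e-04, limma FDR = 0.052).

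The remaining named skipped exons lay in Pfkfb4, a regulator of glycolysis (ΔΨ −27.0), Ccbl2 (−26.4), Nkiras1, an inhibitor of NF-κB signalling (−23.1), and BC042782 (−22.1). All were called by edgeR and none by limma, whose FDR values lay between 0.232 and 0.555. The edgeR call was lost without any 1 of 3 mice for Ccbl2, 5 for Nkiras1 and 1 for BC042782, the sudemycin-treated U2AF1(S34F) mouse 12 (ΔΨ −20.6).

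Exons included more were led by A630001G21Rik, a gene on chromosome 1, with 33.3 to 93.5% under vehicle and 84.6 to 100% under the drug for an exon of 44 bases (ΔΨ 33.9, edgeR FDR = 7.2e-05, limma FDR = 0.015). The change was 55.1 points in U2AF1(WT) and 12.8 in U2AF1(S34F) mice. Pstk, a kinase of the selenocysteine pathway, had 21.2 to 75.0% and 43.4 to 100% (ΔΨ 30.03, edgeR FDR = 0.016, limma FDR = 0.081). Ddx26b, with 253 to 633 reads per mouse, had 27.7 to 55.7% (median 39.0%) and 49.4 to 81.5% (median 59.9%) for an exon of 111 bases. Its treatments overlapped in few mice, and ΔΨ was 20.4 (edgeR FDR = 7.3e-05, limma FDR = 0.043), with 19.1 in U2AF1(WT) and 21.8 in U2AF1(S34F) mice.

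Apol11b, an apolipoprotein L gene, shows why genotype was held constant. Its exon of 124 bases had Ψ of 9.09 to 55.6% under vehicle and 19.8 to 89.6% under the drug, which overlapped widely over all mice. Within each genotype the drug raised it without overlap, by 27.3 points in U2AF1(WT) and 12.4 points in U2AF1(S34F) mice (ΔΨ 19.9, edgeR FDR = 1.7e-04, limma FDR = 0.037, exact permutation p within genotype = 3.1e-05). Arhgap4, a GTPase-activating protein of blood cells, had 26.6 to 55.6% and 46.2 to 79.6% (ΔΨ 19.3, edgeR FDR = 6.8e-04, limma FDR = 0.060).

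Ms4a2, the β chain of the high-affinity IgE receptor of mast cells and basophils, gained a microexon of 15 bases, given in capitals.
Ms4a2 exon: GCAACACAAATTCTG
Its Ψ was 36.8 to 66.7% (median 58.7%) under vehicle and 64.4 to 100% (median 79.6%) under the drug. The ranges met by a few points, and ΔΨ was 21.6 (edgeR FDR = 0.015, limma FDR = 0.12, exact permutation p = 6.3e-05), while the Ms4a2 gene fell (edgeR FDR = 0.053). The other named inclusions were in 4930523C07Rik (28.7), Rps6kb1, the S6 kinase (25.4), Clec4d, a C-type lectin (20.7), and Tbc1d10c, a regulator of lymphocyte signalling (19.8), of which Rps6kb1 and Tbc1d10c lost their call without any 1 of 6 and 2 mice, with limma FDR values between 0.0995 and 0.324.

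**Figure D5:**
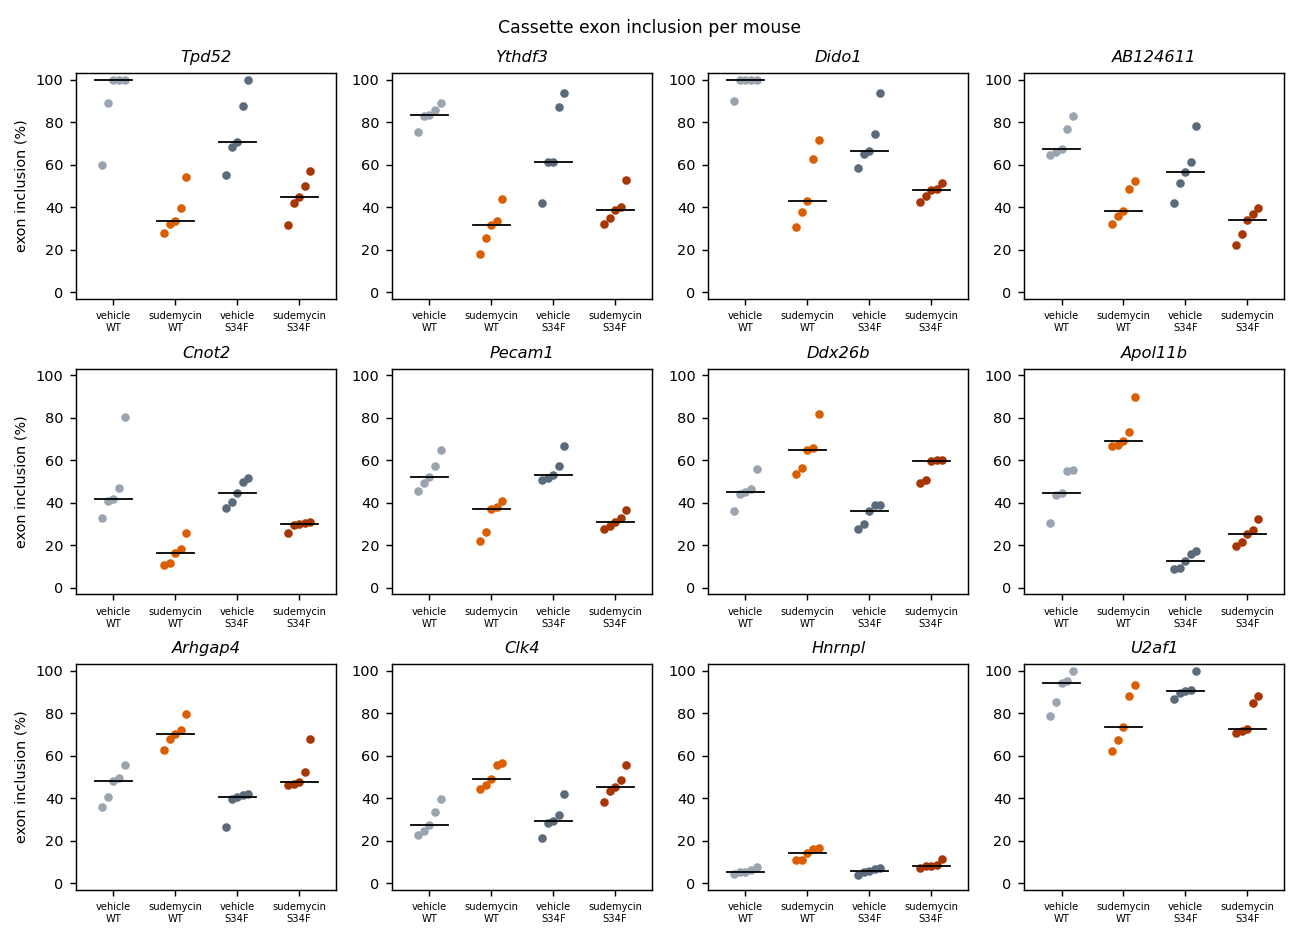
Inclusion of 12 cassette exons in each of the 20 mice, as Ψ in percent on the vertical axis, with 5 mice in each of the 4 groups and a bar at each group's median. Pecam1 and Cnot2 separate all treated from all vehicle mice, and Apol11b separates the treatments within each genotype only.

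Splicing factor genes had called exons of their own. In 64 genes of the 5 splicing lists, 485 cassette events were tested and 17 were called in either direction (3.51%), 8 skipped more and 9 included more. Of all tested cassette events, 0.894% were skipped more and 0.494% included more. The 17 events lay in 10 genes, so they are not independent, and read depth was not matched between these sets. Clk4, a kinase of SR proteins, gained inclusion of an exon of 67 bases, from 21.3 to 42.2% (median 28.9%) under vehicle to 38.4 to 56.4% (median 47.4%) under the drug. The ranges met by a few points, and ΔΨ was 18.2 (edgeR FDR = 5.5e-05, limma FDR = 0.049), with 20.7 in U2AF1(WT) and 15.6 in U2AF1(S34F) mice.

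The U2af1 exon whose site is printed above fell from 78.7 to 100% (median 90.8%) to 62.4 to 93.2% (median 73.0%). ΔΨ was −13.9 (edgeR FDR = 0.063, limma FDR = 0.26, exact permutation p = 0.00375), with −13.8 in U2AF1(WT) and −13.9 in U2AF1(S34F) mice, and the call was lost when any 1 of 5 of the mice was left out. Whether transgene RNA added reads to the junctions of this exon was not tested. Hnrnpl, an RNA-binding protein that represses exons, included an exon of 70 bases more, at 4.07 to 7.91% under vehicle and 7.35 to 16.9% under the drug on 963 to 1825 reads per mouse (ΔΨ 5.59, edgeR FDR = 0.0011, limma FDR = 0.054). Rbm39 (−10.6), Hnrnph2 (−6.14) and Pcbp2 (−5.84) had called decreases with limma FDR values between 0.382 and 0.691, and the Rbm39 call was lost without any 1 of 12 mice.

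Other event types were rarer. Of 3550 alternative 3′ splice site events, 30 (0.845%) were called. Ino80d, a subunit of a chromatin remodeller, used the site nearer to the upstream exon less, from 58.7 to 69.6% (median 63.1%) to 37.9 to 53.3% (median 42.3%), without overlap and on 185 to 358 reads per mouse (ΔΨ −20.9, edgeR FDR = 2.6e-07, limma FDR = 0.0028). This was the single event of its type that limma called too. The other named events of this type were in A630001G21Rik (ΔΨ −46.3, limma FDR = 0.30) and Fgd2 (ΔΨ 11.1, limma FDR = 0.43). The A630001G21Rik event had 0 to 45 reads per mouse and changed by −75.6 points in U2AF1(WT) and −17.1 in U2AF1(S34F) mice. The edgeR call of Fgd2 was lost without any 1 of 6 mice. Of 2217 alternative 5′ splice site events, 4 (0.18%) were called, all with less use of the site nearer to the downstream exon. They included Cdk11b, a cyclin-dependent kinase that phosphorylates splicing proteins (52.1 to 63.2% to 33.7 to 53.9%, ΔΨ −15.4, edgeR FDR = 2.9e-06, limma FDR = 0.085), Ttc14 (20.8 to 36.1% to 10.05 to 20.4%, without overlap, ΔΨ −10.8, edgeR FDR = 0.010, limma FDR = 0.16) and Ap1g2 (ΔΨ −11.1, edgeR FDR = 0.051, limma FDR = 0.52). The edgeR call of Ap1g2 was lost without any 1 of 5 mice. Of 1767 mutually exclusive exon events, 57 (3.23%) were called. The named ones were Zfp644 (ΔΨ 27.5, limma FDR = 0.042), whose edgeR call was lost without any 1 of 13 mice, Gm885 (−21.9, limma FDR = 0.074) and Lims1 (21.6, limma FDR = 0.21). The edgeR call of Lims1 was lost without any 1 of 3 mice.

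Exon changes were also compared between fits on each genotype alone. Of 448 cassette events called in U2AF1(WT) mice, 397 (88.6%) had the same sign in U2AF1(S34F) mice, and of 703 called in U2AF1(S34F) mice, 618 (87.9%) had the same sign in U2AF1(WT) mice, compared with 55.5% of the 38873 events tested in both. A test of the difference between genotypes called 0 cassette events in edgeR, and 3138 had an unadjusted interaction p below 0.05.

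Per mouse, the mean Ψ over a fixed set of cassette exons was 93.8 ± 0.028% (SD, n = 10) under vehicle and 93.7 ± 0.084% (SD, n = 10) under the drug. The difference of −0.10 points had an exact permutation p of 0.0027, two-sided and within genotype, and the median Ψ did not change. In U2AF1(S34F) mice alone the difference was −0.137 points, and in U2AF1(WT) mice alone it was −0.0628 with an exact permutation p of 0.206. Of 6 classes of junctions, including those with a new 3′ or 5′ end and those that pass over an exon, 0 differed in their share of reads after adjustment. The smallest adjusted exact permutation p was 0.078, for junctions with a new 5′ end, which took 0.479% of reads under vehicle and 0.452% under the drug.

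Exons skipped more had features in common that the test did not use. Their median length was 91 bases, against 109 for exons included more and 116 for all tested. Their flanking introns had medians of 5712 bases upstream and 6108 bases downstream, against 1517 and 1394 for exons included more and 1941 and 1697 for all tested. Of the 578 different exons skipped more, 34 (5.88%) were at most 30 bases long, against 2.15% of those included more and 1.23% of all. Called exons are more often of intermediate inclusion, and among exons with a mean Ψ of 10 to 90% the medians were 107 bases, 2340 bases and 2309 bases, with 2.79% at most 30 bases. The median Ψ of that set was 69.2%, against 89.9% in events skipped more and 87.7% in events included more, so it is not matched to them in Ψ. The 158 events skipped more in both tests had medians of 86.5, 6366 and 9046 bases and a median Ψ of 95.1%. At the base 3 before the exon, cytosine made up 60.9% in exons skipped more, 56.1% in those included more and 59.0% in all, and thymine 32.7%, 35.6% and 34.1%.

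Gene levels were compared with exon calls. Of the 690 genes with a called cassette event, 131 (19.0%) were called at the gene level, 77 higher and 54 lower, compared with 16.4% of the 9340 genes with a tested event.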

How the data were processed

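Per the labels, RNA was sequenced as stranded, ribosomal RNA-depleted libraries. The authors aligned reads with TopHat2 2.0.8 to mm9 (NCBIM37) and deposited raw read counts per gene and raw read counts per splice junction for all 20 mice. The gene counter is not given in the sources used here. No column belonged to another series (0 columns).

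Genes were filtered with filterByExpr, scaled by TMM and tested with the edgeR 4.0.16 quasi-likelihood test in R 4.3.3, with genotype and drug as additive terms, a prior count of 2 and an FDR limit of 10% (Benjamini-Hochberg). SE was taken as the absolute log2 fold change over the root of F. CPM are gene counts divided by the TMM-scaled library total. Of 37620 genes, 37205 had symbols.

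Splice events were built from annotated exons and junction counts. Events entered the test if their reads averaged 10 or more in a mouse and neither isoform was missing, and were called at an FDR below 10% and a |ΔΨ| above 1%. The test was edgeR quasi-likelihood with dispersion 0, a form chosen in earlier work on these data. limma 3.58.1 on logit Ψ, DESeq2 1.42.0 and the other settings in the closing section were alternatives. Single values were tested by exact permutation of treatment within genotype (63504 arrangements). Scripts were tested on simulated data.

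The members and lists were chosen with earlier results of these data known. Named genes were the 10 protein-coding genes called higher and the 10 called lower with the largest fold change, a mean of at least 1 CPM and the same sign in each genotype, without clone-type names, then up to 2 called members of each list, and U2af1, Sf3b1 and Xist. Named exons were the 10 largest |ΔΨ| in each direction with a mean of at least 20 reads, 3 of each other event type, and 6 in splicing factor genes. Other list members were chosen after their values were seen. Some genes counted in the lists are not reported here by name.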

Additional observations from a re-analysis of the deposited data

Results flagged for a closer look

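In groups of 5 mice, 1 value lay far from the other 4 in 36 of 480 groups of named values, where chance gives about 1 in 20. The vehicle-treated U2AF1(WT) mouse 2 gave 8 of them: Lypd6b at 0.630 CPM, Prok2 at 12.9 CPM, Plk1 at 57.3 CPM, Hist1h1a at 355 CPM, Cd3d at 3.24 CPM, 97.6% of reads on annotated introns, 0.228% on annotated ends that the annotation does not join, and 0.429% on junctions with a new 5′ end. The sudemycin-treated U2AF1(WT) mouse 8 gave 4: Ifit3 at 5.56 CPM, Ifi44 at 3.54 CPM, H2-K1 at 486 CPM and Fcgr1 at 11.8 CPM.

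Other treated U2AF1(WT) mice stood apart in Rag1 (2.07 CPM) and Igll1 (1.48 CPM) for mouse 10, in Lars2 (2544 CPM) for mouse 12, in Zrsr1 (17.2 CPM) for mouse 9, and in the inclusion of the A630001G21Rik exon (91.7%) for mouse 6. Among treated U2AF1(S34F) mice these were Egr1 (11.7 CPM), Dnahc17 (2.07 CPM) and Rab15 (3.64 CPM) for mouse 10, Fkbp5 (161 CPM), Dnaja1 (89.7 CPM) and the Arhgap4 exon (68.0%) for mouse 6, Ear1 (18.6 CPM) for mouse 9, and the exons of Pfkfb4 (81.0%) and Cnot2 (25.8%) for mouse 12.

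Among vehicle-treated U2AF1(WT) mice, mouse 1 stood apart in Atf3 (97.3 CPM) and in the mutually exclusive exons of Lims1 (17.2%), mouse 4 in H2-D1 (1474 CPM), Fkbp5 (106 CPM) and the Tpd52 exon (60%), and mouse 3 in the Dido1 exon (90%). Among vehicle-treated U2AF1(S34F) mice, mouse 5 stood apart in Ifit3 (16.2 CPM), Hist1h1a (322 CPM) and Fcgr1 (14.05 CPM), and mouse 7 in the Arhgap4 exon (26.6%).

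The drug effect differed between genotypes by an interaction test for 2 genes. The difference, U2AF1(S34F) minus U2AF1(WT), was 2.38 on the log2 scale for Atf3 and 1.12 for Gla.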

How the results depend on the processing

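Of 3241 values of 114 named genes, exons and other results under alternatives, 2846 kept their direction and side of the limit, 394 kept the direction but missed the limit, and 1 reversed: Gla in U2AF1(S34F) mice alone (0.11). The 1197 genes called higher became 557 without the genotype term, 174 in U2AF1(WT) and 727 in U2AF1(S34F) mice alone, 762 at an FDR below 5%, 89 above a log2 fold change of 1, and 913 to 1670 without 1 mouse. The 1112 called lower became 544 without the genotype term, 279 in U2AF1(WT) mice, 97 below −1, and 901 to 1363 without 1 mouse. The 2 interaction calls became 116 in DESeq2, 10 without a filter, and 2 to 87 without 1 mouse (87 without the vehicle-treated U2AF1(S34F) mouse 5, 26 without the sudemycin-treated U2AF1(WT) mouse 9).

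The 619 cassette events skipped more became 175 with limma, 0 with an estimated dispersion, 298 without the genotype term, 1095 without the 3 mice that stood apart (chosen after seeing the data), 256 in U2AF1(WT) mice, 320 and 136 at |ΔΨ| above 5% and 10%, and 609 to 745 without 1 mouse. The 342 included more became 83, 0, 131, 600, 193, 168, 74 and 317 to 463. The 30 alternative 3′ site events became 1 with limma, 1 with an estimated dispersion, 17 without the genotype term, 14 and 13 in U2AF1(WT) and U2AF1(S34F) mice, 6 above 10%, and 25 to 36 without 1 mouse. The 4 alternative 5′ site events became 1, 0 with an estimated dispersion, 2 in U2AF1(WT) mice, 7 with both isoforms in 5 mice or without the 3 mice (both chosen after seeing the data), and 3 to 7 without 1 mouse (7 without the vehicle-treated U2AF1(S34F) mouse 5 or the sudemycin-treated U2AF1(WT) mouse 6 or 9). The 57 mutually exclusive events became 36 with limma and with an estimated dispersion, 16 and 27 in the genotypes, 28 and 14 above 5% and 10%, and 44 to 60. The mean Ψ difference became −0.0628 in U2AF1(WT) mice, 0 as a median, and −0.116 to −0.0888 without 1 mouse. Junctions with a new 5′ end differed by −0.0317 in U2AF1(S34F) mice and by −0.0321 to −0.0224 without 1 mouse.

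Same-numbered mice did not all deviate together: of 8 such pairs, 4 correlated above 0.1 (range −0.18 to 0.37), so the numbers were not taken as pairs. With the replicate number as a block, 1088 genes were higher and 1036 lower (consensus correlation 0.062), and limma called 171, 79, 1, 1 and 38 events in the order above. The causes of these differences were not tested. Ψ from few reads is coarse: exons with a mean near 20 reads per mouse resolve steps of several points, and the permutations allow no p below 3.15e-05. Recipients shared pooled donors, so the spread between donors was not measured.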
